A study of Mus musculus with 285 samples.

Results

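Neuron segments of the dentate gyrus (DG) were set against neuron segments of the CA pyramidal layers of the mouse hippocampus. The libraries were chosen by their labels alone, as those of cell type Neurones from DG, CA1 or CA3 that held at least 100000 counts. All 15 DG, 15 CA1 and 15 CA3 libraries met that minimum, which made 45 of the 285 libraries of the series. Each of 15 mice gave 1 library of each region, and DG was compared with the mean of CA1 and CA3 of the same mouse.

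The study examined how the brain responds within 24 h to whole-brain irradiation given at an ultra-high dose rate (FLASH) or at a conventional dose rate (CONV). The mice were C57BL/6J, 9 weeks old by the series' description, and carried no tumor. The groups were FLASH 3x10Gy and CONV 3x10Gy (3 fractions of 10 Gy, 48 h apart), FLASH 1x10Gy and CONV 1x10Gy (1 fraction of 10 Gy), and sham-irradiated CTRL, with 3 mice each. Brains were fixed and embedded in paraffin, sections were labeled with antibodies to the neuronal protein NeuN, to GFAP of astrocytes and to CD31 of vessels, and the GeoMx profiler released the probe tags of a whole-transcriptome panel from the NeuN-positive area of 1 region of interest per hippocampal region and mouse. A segment therefore held all probe tags inside the NeuN-positive outline, including those of any other cell within it, and the gene that encodes NeuN, Rbfox3, was used to choose the segments and is no finding between them.

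The DG is the entry gate of the hippocampal circuit. Its granule cells are small, densely packed glutamatergic neurons that fire sparsely, receive input from the entorhinal cortex and send mossy fibers to CA3, and new granule cells are added throughout life in rodents. CA3 and CA1 pyramidal cells are larger glutamatergic neurons: CA3 cells receive the mossy fibers and excite each other, and their Schaffer collaterals drive CA1, the main output of the hippocampus. The transcription factor Prox1 sets and keeps granule cell identity in mice, and the E-box-binding factor Neurod6 is a mark of pyramidal neurons.

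Depth and background differed between the regions. Total counts ran between 219476 and 2002821 in DG (median 1103168), between 229918 and 1101910 in CA1 (median 439890) and between 286167 and 2008952 in CA3 (median 859218). A gene was taken as detected where it exceeded the limit of quantification, set from the 209 negative probes that target no mouse sequence, and DG libraries detected 1604 to 11531 genes (median 8808), against 2307 to 6710 in CA1 (median 4439) and 2496 to 7008 in CA3 (median 5376). The background share, the mean negative probe count as a percent of the mean gene count, was 48.1% ± 9.03 in DG (SD, n = 15 mice) and averaged 60.7% over CA1 and CA3. It was lower in DG in 15 of 15 mice, by 12.6 percentage points on average (SD 4.88), and the exact two-sided sign-flip permutation test gave the smallest p that 15 mice allow, 6.1e-05. In TMM-scaled counts (CPM, scaled to 1 common library size), negative probes lay at 18.7 to 32.8 in DG (median 23.4), 24.6 to 35.4 in CA1 (median 29.8) and 24.1 to 38.2 in CA3 (median 30.0). Olfactory receptor genes, which serve neurons of the nose, were called lower in DG for 264 of 687 tested and higher for 14, with a median log2 fold of -0.14. With the background share of each library as a covariate the same genes gave 25 higher and 1 lower, with a median of 0.07, and the part of the background in other small folds was not tested. One DG library stood apart, that of CONV 3x10Gy mouse B, with 219476 counts, 1604 genes detected and a background share of 65.0%. Without that mouse 2362 genes were called higher and 2782 lower in DG.

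**Figure D1:**
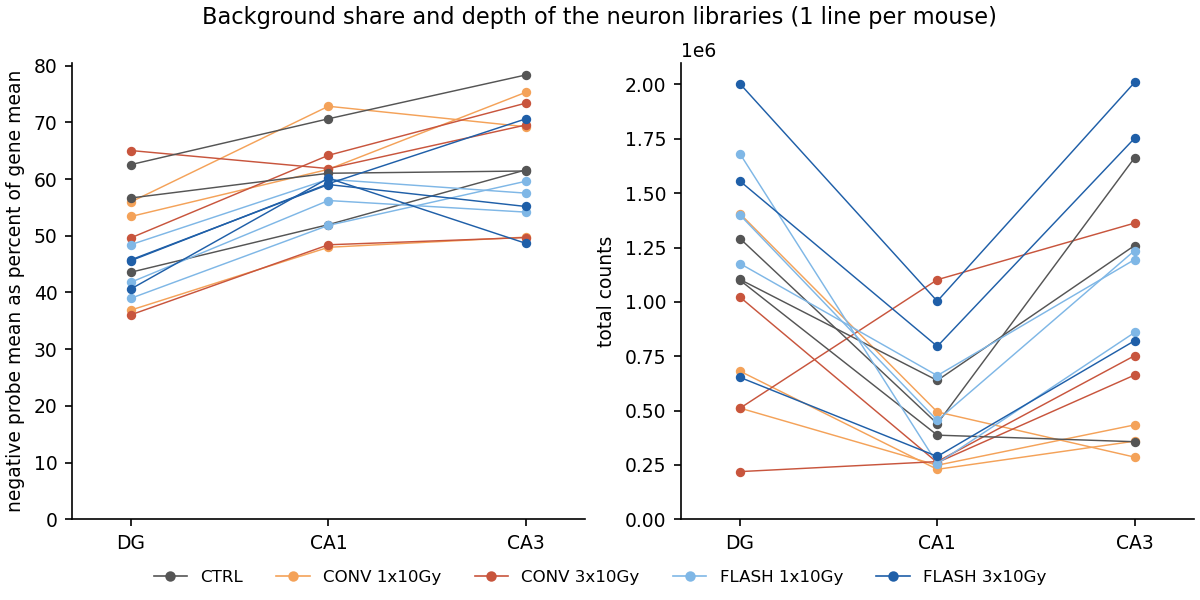
Background share in percent (mean negative probe count over mean gene count) and total counts per library, both on axes that start at 0, for DG, CA1 and CA3, with 1 line per mouse colored by treatment. The DG libraries averaged 48.1% background and the CA libraries 60.7%, and DG was lower than the CA mean in every mouse.

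DG and CA neurons differed widely. Of 10020 genes tested, 2595 (25.9%) were higher and 2407 (24.0%) lower in DG at an edgeR adjusted p under 0.05, and the median log2 fold of all genes was -0.01. Most differences were small: 126 genes (1.26%) were at least 2-fold higher and 75 (0.749%) at least 2-fold lower. Among the called genes, 644 (6.43%) were higher in all 15 mice and 383 (3.82%) lower in all 15 mice. With the background share of each library as a covariate, which the region itself moves, the calls came to 1092 higher and 1120 lower. That fit is given below for many, but not all, of the lists and genes whose calls or direction it changed. List counts against the CA mean are to be read beside the shares of all genes, 25.9% higher and 24.0% lower. In these bulk segments fewer cells of a type and less RNA per cell cannot be told apart, and the levels of different genes were not compared, since each probe has its own efficiency.

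The granule cell markers set the DG segments apart in every mouse. Prox1, the transcription factor of granule cells, lay between 92.5 and 130 CPM in DG (median 108), between 17.6 and 64.0 CPM in CA1 (median 35.3) and between 24.2 and 59.97 CPM in CA3 (median 31.9). The DG and CA libraries did not overlap, and the fitted log2 fold was 1.63 ± 0.07 (SE, edgeR adjusted p = 2.6e-64). Dsp, which encodes the desmosomal protein desmoplakin and is used as a granule cell marker, was between 43.1 and 84.5 CPM in DG (median 63.1), between 9.27 and 41.4 CPM in CA1 (median 22.6) and between 8.46 and 30.3 CPM in CA3 (median 16.7). It was above the limit of quantification in 12 of 15 DG libraries and in 0 of 30 CA libraries, with a log2 fold of 1.84 ± 0.09 (SE, edgeR adjusted p = 6.1e-49). Calb1, the calcium buffer calbindin, followed another order. Its levels were 79.8 to 134 CPM in DG (median 110), 41.4 to 86.7 CPM in CA1 (median 57.5) and 13.7 to 39.2 CPM in CA3 (median 25.04). DG and CA1 overlapped for Calb1 while DG and CA3 did not, and the log2 fold was 0.84 over CA1 and 2.09 over CA3.

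Over the longer list of 19 granule cell markers, 17 were tested, 15 were higher in DG and 0 lower, beside 25.9% and 24.0% of all genes, and the median log2 fold was 1.60. The summed level of the 19 genes was 1421 to 2027 CPM in DG, 637 to 831 CPM in CA1 and 523 to 773 CPM in CA3. The 2 members that did not pass were the opioid peptide precursors Penk (log2 fold 0.01 ± 0.08, SE) and Pdyn (0.05 ± 0.07, SE). Pdyn averaged 62.9 CPM in DG, 55.5 CPM in CA1 and 63.5 CPM in CA3, and Penk 52.8, 69.1 and 41.2 CPM in the same order. The markers Lct and Tdo2 were above the limit in 6 and 7 of 15 DG libraries and were not tested. The kinase family member Plk5 (log2 fold 1.60 ± 0.07, SE), the cation channel Trpc6 (1.35 ± 0.08, SE) and Pdzd2 (1.10 ± 0.07, SE) were each higher in DG in all 15 mice. Plk5, Trpc6, Pdzd2, Penk and Pdyn were named after their values were seen. The labels of the DG segments thus matched their defining markers.

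**Figure D2:**
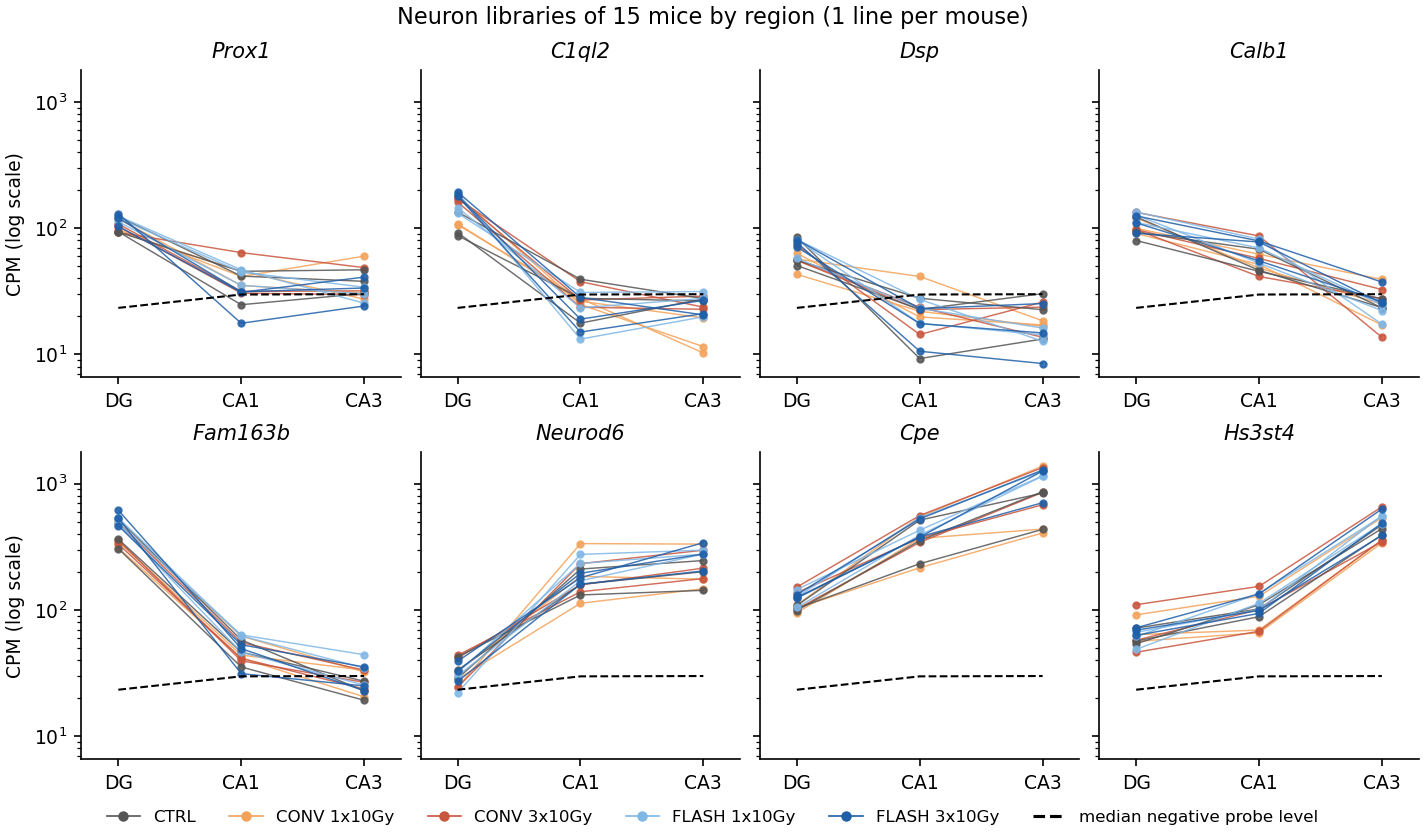
Level of 8 genes in CPM on a log axis in the DG, CA1 and CA3 neuron library of each of 15 mice, with 1 line per mouse colored by treatment and a dashed line at the median negative probe level. Prox1, C1ql2, Dsp and Fam163b were higher in DG than in both CA regions in every mouse, Calb1 stepped down through CA1 to CA3, and Neurod6, Cpe and Hs3st4 were lower in DG.

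Fam163b had the largest difference of all called genes. It lay between 306 and 615 CPM in DG (median 478), between 31.3 and 63.4 CPM in CA1 (median 46.4) and between 19.3 and 44.2 CPM in CA3 (median 26.7). The lowest DG library was far above the highest CA library, with a log2 fold of 3.59 ± 0.07 (SE, edgeR adjusted p = 9.8e-143) and single mice between 3.10 and 4.14. C1ql2 came next, a secreted C1q-like protein that organizes mossy fiber synapses in mice. Its levels were 87.3 to 193 CPM in DG (median 161), 13.2 to 39.4 CPM in CA1 (median 26.4) and 10.3 to 31.5 CPM in CA3 (median 23.7). All 15 DG libraries and 0 of 30 CA libraries were above the limit of quantification for C1ql2, and the log2 fold was 2.62 ± 0.08 (SE, edgeR adjusted p = 5.1e-59). On the CA side Neurod6 differed most. Neurod6 lay between 22.0 and 43.7 CPM in DG (median 31.9), between 113 and 335 CPM in CA1 (median 180) and between 143 and 341 CPM in CA3 (median 246). It was above the limit in 0 of 15 DG and in 30 of 30 CA libraries, so that its DG level was not distinguished from background, and the log2 fold was -2.75 ± 0.08 (SE, edgeR adjusted p = 6.0e-70). Where one side sits at background the fold is compressed. For Fam163b in CA3, C1ql2 in CA and Neurod6 in DG the median level was near or below the negative probe level. Subtraction of the negative probe mean therefore gives no exact fold for these genes, and none is printed.

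The promoter windows of these 3 genes are shown because they carry the largest differences in each direction, and because Neurod6 and the DG-enriched Bhlhe22 belong to the basic helix-loop-helix factors that bind the E-box CANNTG. Each window runs 5′ to 3′ from 250 bases before to 50 bases after the RefSeq start (GRCm38.p6), with E-boxes in capitals. Fam163b lies at chr2:27142428-27142727 on the minus strand, C1ql2 at chr1:120340332-120340631 on the plus strand and Neurod6 at chr6:55681214-55681513 on the minus strand.
Fam163b: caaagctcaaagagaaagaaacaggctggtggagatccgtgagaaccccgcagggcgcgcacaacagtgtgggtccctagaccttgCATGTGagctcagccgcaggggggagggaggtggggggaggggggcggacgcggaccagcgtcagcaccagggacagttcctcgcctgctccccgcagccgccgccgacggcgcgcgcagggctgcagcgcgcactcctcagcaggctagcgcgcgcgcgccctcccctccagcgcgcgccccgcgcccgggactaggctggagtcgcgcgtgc
C1ql2: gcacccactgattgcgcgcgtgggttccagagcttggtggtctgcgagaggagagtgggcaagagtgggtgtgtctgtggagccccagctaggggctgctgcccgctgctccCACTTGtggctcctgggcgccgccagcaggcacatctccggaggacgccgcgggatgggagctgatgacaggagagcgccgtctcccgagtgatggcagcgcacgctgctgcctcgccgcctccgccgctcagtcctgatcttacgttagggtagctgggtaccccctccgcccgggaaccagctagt
Neurod6: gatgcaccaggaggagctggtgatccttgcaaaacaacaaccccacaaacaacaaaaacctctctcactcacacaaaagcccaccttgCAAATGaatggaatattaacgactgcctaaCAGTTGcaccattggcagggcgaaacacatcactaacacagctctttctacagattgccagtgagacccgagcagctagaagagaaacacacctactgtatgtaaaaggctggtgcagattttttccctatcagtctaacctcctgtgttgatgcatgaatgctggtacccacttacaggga

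The Fam163b window held 1 E-box and 34 CpG pairs, the C1ql2 window 1 E-box and 23 CpG pairs, and the Neurod6 window 2 E-boxes and 3 CpG pairs. Of the 10223 windows of tested genes 64.6% held at least 1 E-box, which reads the same on both strands, and their median was 20 CpG pairs, so that an E-box in these windows is common. Such a match is a description of the letters and not a bound site.

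The other genes with the largest DG excess had roles at the synapse, in small GTPase control, in transport and in transcription. C1ql3 is a close relative of C1ql2, and whether their probes read each other was not tested. C1ql3 lay between 69.4 and 184 CPM in DG (median 154), between 22.7 and 60.1 CPM in CA1 (median 37.1) and between 10.9 and 34.7 CPM in CA3 (median 21.0). Its libraries did not overlap between DG and CA (log2 fold 2.39 ± 0.07, SE, edgeR adjusted p = 5.5e-64). Lrrtm4, a postsynaptic organizer of excitatory synapses, was between 112 and 162 CPM in DG (median 152), between 8.81 and 48.3 CPM in CA1 (median 31.8) and between 27.4 and 55.0 CPM in CA3 (median 39.0). The log2 fold of Lrrtm4 was 2.05 ± 0.07 (SE, edgeR adjusted p = 1.0e-66), again without overlap. Stxbp6, a SNARE-binding protein also called amisyn, was between 96.3 and 220 CPM in DG (median 167), between 22.0 and 63.2 CPM in CA1 (median 34.0) and between 26.7 and 60.5 CPM in CA3 (median 39.7), with a log2 fold of 2.07 ± 0.07 (SE). Dock10 and Tiam1 are exchange factors that activate small GTPases. Dock10 lay between 92.7 and 187 CPM in DG (median 153), between 13.9 and 64.0 CPM in CA1 (median 31.8) and between 18.5 and 44.5 CPM in CA3 (median 27.4), and Tiam1 had a log2 fold of 1.91 ± 0.07 (SE) with DG above both CA regions in all 15 mice. The log2 folds were 1.91 ± 0.07 (SE) for Slc4a4, a sodium bicarbonate cotransporter, 1.89 ± 0.08 for Igfbp5, a secreted binding protein of insulin-like growth factors, 1.85 ± 0.07 for Pitpnm2, a phosphatidylinositol transfer protein, and 1.97 ± 0.09 for the zinc-finger factor Glis3. None of these 4 genes overlapped between DG and CA libraries. Slc4a4 is also on the list of astrocyte markers.

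Pcp4, a small regulator of calmodulin that is also a marker of CA2, was the exception among the largest DG genes. Its levels were 258.9 to 510 CPM in DG (median 370), 32.5 to 77.9 CPM in CA1 (median 42.2) and 57.8 to 276 CPM in CA3 (median 152). DG and CA3 overlapped across mice, although DG was above both CA regions within each of the 15 mice. The log2 fold of Pcp4 was 3.05 over CA1 and 1.39 over CA3. Whether the CA3 segments reached into CA2 was not tested, and of the 4 CA2 markers tested 1 was higher (Pcp4) and 3 lower in DG.

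The genes that were lowest in DG relative to CA included secretory pathway, vesicle and RNA-binding genes. Cpe, the carboxypeptidase that trims neuropeptide precursors, lay between 95.02 and 152 CPM in DG (median 110), between 216 and 560 CPM in CA1 (median 379) and between 407 and 1379 CPM in CA3 (median 865). DG was lowest in every mouse without overlap, with a log2 fold of -2.34 ± 0.08 (SE, edgeR adjusted p = 1.3e-66). Cck, the precursor of the peptide cholecystokinin, was between 14.2 and 59.6 CPM in DG (median 51.8), between 109 and 285 CPM in CA1 (median 208) and between 99.0 and 266 CPM in CA3 (median 177), with a log2 fold of -1.95 ± 0.08 (SE). Dkk3, a secreted member of the Dickkopf family, had 26.7 to 48.8 CPM in DG (median 36.0), 110 to 280 CPM in CA1 (median 198) and 106 to 287 CPM in CA3 (median 222). Its log2 fold was -2.45 ± 0.08 (SE, edgeR adjusted p = 2.6e-69). Khdrbs3, an RNA-binding splicing regulator, had 24.3 to 55.5 CPM in DG (median 32.1), 111 to 218 CPM in CA1 (median 172) and 104 to 207 CPM in CA3 (median 160), with a log2 fold of -2.25 ± 0.08 (SE). Both Dkk3 and Khdrbs3 were similar between CA1 and CA3 and above the limit of quantification in only 3 of 15 DG libraries each. Ociad2 had a log2 fold of -1.85 ± 0.08 (SE) and was lower in DG in 15 of 15 mice.

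A second set of low DG genes was graded, with CA1 between DG and CA3. Stmn2, a stathmin that binds tubulin, lay between 25.1 and 47.5 CPM in DG (median 36.4), between 56.5 and 112 CPM in CA1 (median 78.9) and between 153 and 399 CPM in CA3 (median 268). The 3 regions did not overlap, and the log2 fold of DG was -1.14 against CA1 and -2.82 against CA3. Hs3st4, a heparan sulfate sulfotransferase, was between 46.2 and 110 CPM in DG (median 62.9), between 65.9 and 154 CPM in CA1 (median 101) and between 340 and 656 CPM in CA3 (median 472). DG and CA1 overlapped for Hs3st4 and CA3 lay above both, with log2 folds of -0.67 against CA1 and -2.83 against CA3. The synaptic vesicle glycoprotein Sv2b (log2 fold -1.41 against CA1 and -2.39 against CA3) and the copine Cpne7 (-1.71 and -3.43 in that order) showed the same grading. Cpne7 in DG, at 20.3 to 60.1 CPM, met the lowest CA1 library, at 55.7 CPM. Fxyd7, a regulatory subunit of the sodium pump, was 15.9 to 50.9 CPM in DG, 65.9 to 146 CPM in CA1 and 34.2 to 194 CPM in CA3, and DG was below both CA regions in 14 of 15 mice.

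**Figure D3:**
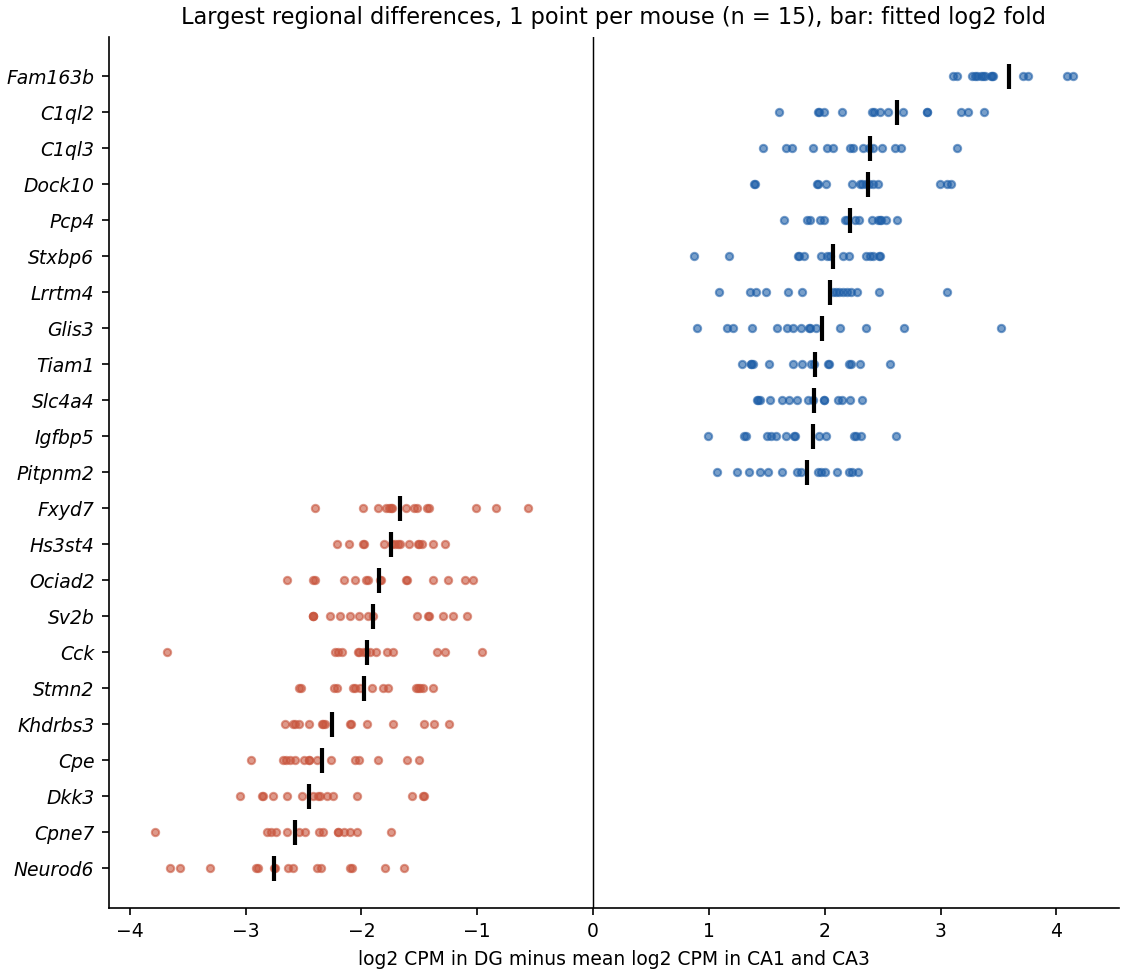
Difference of log2 CPM between DG and the mean of CA1 and CA3 for reported genes among those with the largest positive and the largest negative log2 fold, 1 point per mouse (n = 15) and a bar at the fitted log2 fold. The fitted values run between 3.59 for Fam163b and -2.75 for Neurod6, and all 15 mice lie on 1 side of 0 because the genes were chosen for that. The points use a prior count of 2, so that some lie nearer to 0 than the fit.

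Tested against each CA region by itself, DG had 1791 genes higher (17.9%) and 1527 lower (15.2%) than CA1, and 2752 higher (27.5%) and 2434 lower (24.3%) than CA3. Both comparisons use the same DG libraries, so their values are given side by side. The 9 tested CA1 pyramidal markers were all lower in DG than the CA mean (4 with the covariate and 6 after subtraction), and their median log2 fold was -0.96 against CA1 and -0.05 against CA3. Mpped1 lay between 24.4 and 44.6 CPM in DG (median 34.9), between 132 and 224 CPM in CA1 (median 178) and between 26.6 and 49.7 CPM in CA3 (median 38.2), so that DG and CA3 overlapped (log2 fold -0.05 against CA3, edgeR adjusted p = 0.70). Fibcd1 had 21.8 to 48.8 CPM in DG (median 37.9), 87.1 to 224 CPM in CA1 (median 189) and 19.3 to 41.1 CPM in CA3 (median 27.8), with log2 folds of -2.24 against CA1 and 0.50 against CA3. The orphan receptor Gpr161 (-1.54) and the mannosidase Man1a (-0.96) were lower in DG than CA1 as well, and were not called against CA3. Of the 9 tested CA3 pyramidal markers, 7 were lower and 1 higher in DG than CA3, with a median log2 fold of -1, while 0 were lower and 4 higher than CA1, with a median of 0.22. Grik4, a kainate receptor subunit of CA3 cells, lay between 23.1 and 71.0 CPM in DG (median 43.3), between 18.8 and 43.3 CPM in CA1 (median 32.4) and between 106 and 201 CPM in CA3 (median 128). Its log2 fold was 0.55 against CA1 and -1.49 against CA3. The peptide receptor gene Npy2r (-0.95 against CA3, edgeR adjusted p = 3.1e-26, and -0.09 against CA1, adjusted p = 0.54) and the cadherin Cdh24 (-1.18 and -0.26, adjusted p = 0.068, in that order) were lower in DG than CA3 and not called against CA1. The labels of CA1 and CA3 thus matched most of their markers. St18, a zinc-finger factor of the CA3 list, went against its list and was higher in DG than CA3 (0.66) and CA1 (0.82). Against the CA mean, Man1a lost its call with the background covariate (-0.38, edgeR adjusted p = 0.12), and Fibcd1 (0.080) and Grik4 (-0.20) lost theirs after subtraction, with adjusted p of 0.68 and 0.65. Nptx1, a neuronal pentraxin, had 432 to 933 CPM in DG (median 702), 192 to 457 CPM in CA1 (median 282) and 233 to 1328 CPM in CA3 (median 739), and DG and CA3 were not separated (-0.16, edgeR adjusted p = 0.055).

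**Figure D4:**
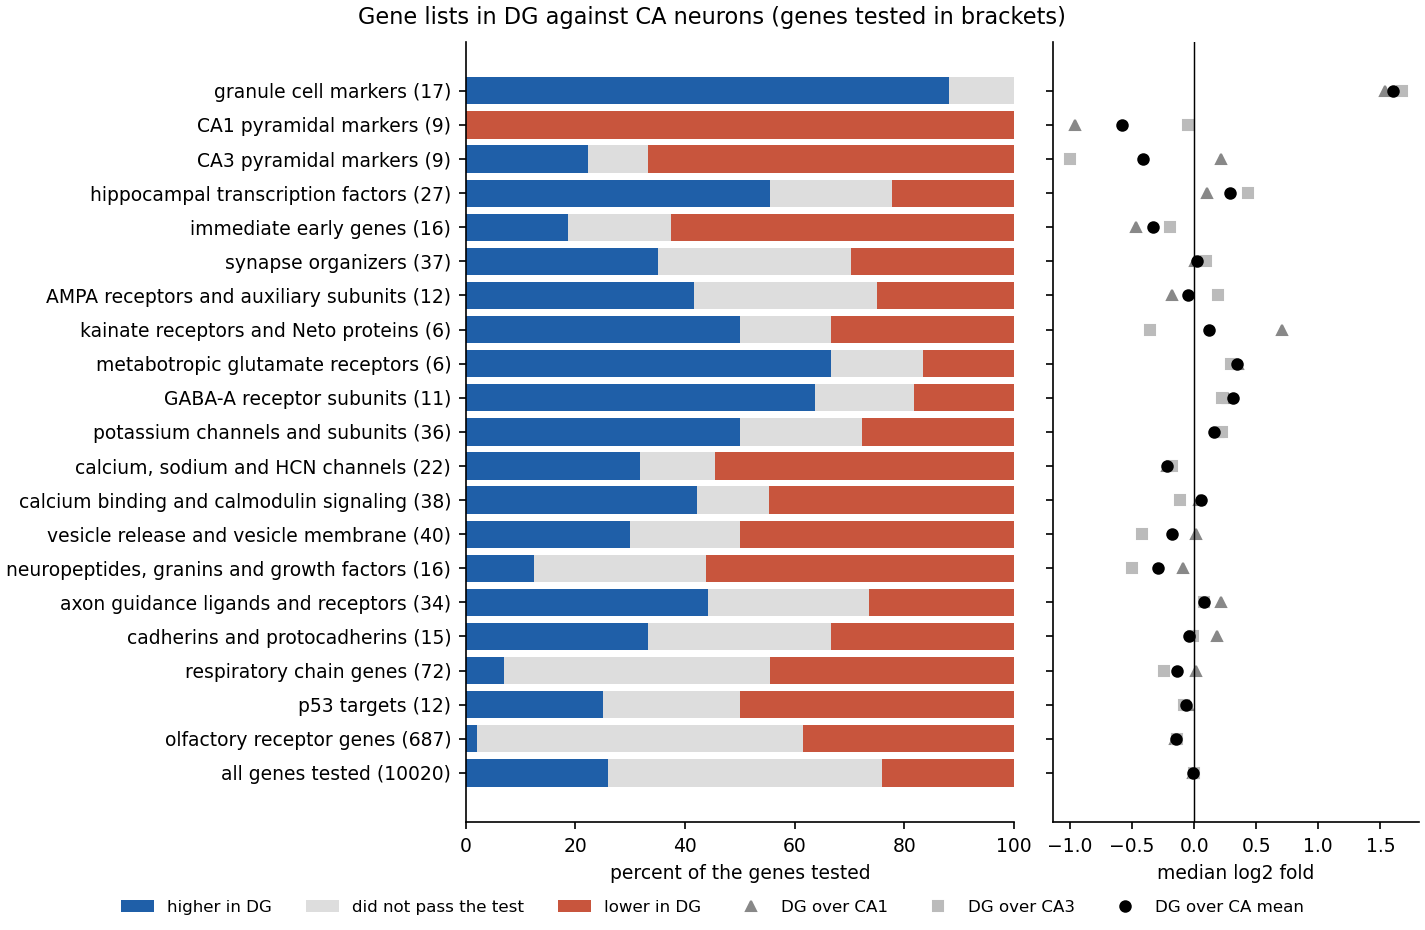
For gene lists with their number of tested genes in brackets, for olfactory receptor genes and for all genes tested, the percent of tested genes called higher in DG, not called or called lower in DG against the mean of CA1 and CA3, beside the median log2 fold of each list against the CA mean, CA1 and CA3. The 15 of 17 granule cell markers and 9 of 9 CA1 markers stand at the 2 ends, while all genes tested had 25.9% higher and 24.0% lower.

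Transcription factors known in the hippocampus split by region. Of 27 tested, 15 were higher and 6 lower in DG, beside 25.9% and 24.0% of all genes, with a median log2 fold of 0.29. With the covariate 10 were higher and 6 lower. Bhlhe22, a repressor of the same helix-loop-helix class as Neurod6, lay between 83.2 and 202 CPM in DG (median 157), between 24.8 and 70.1 CPM in CA1 (median 43.9) and between 41.3 and 107 CPM in CA3 (median 72.4). Its log2 fold was 1.82 over CA1 and 1.06 over CA3, and DG was higher in 15 of 15 mice. Rfx3, a winged-helix factor, had a log2 fold of 1.44 ± 0.06 (SE, edgeR adjusted p = 1.9e-60) and the activity-regulated factor Mef2c one of 0.98 ± 0.07 (SE). Bcl11b, also called Ctip2, averaged 116 CPM in DG, 118 CPM in CA1 and 40.5 CPM in CA3. It was therefore higher in DG than CA3 (log2 fold 1.59) but not separated from CA1 (-0.03, edgeR adjusted p = 0.77). Pou3f1 (-1.09 ± 0.11, SE), Foxp1 (-0.57 ± 0.07), Meis2 (-0.54 ± 0.08) and Fezf2 (-0.62 ± 0.10) were lower in DG, beside Neurod6. Mef2c, Bcl11b, Pou3f1, Foxp1, Meis2 and Fezf2 were named after their values were seen.

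Ionotropic glutamate receptors differed by subunit rather than as a class. Of 12 AMPA receptor genes and auxiliary subunits tested, 5 were higher and 3 lower, beside 25.9% and 24.0% of all genes, with a median log2 fold of -0.05. The counts turned to 3 higher and 5 lower with the covariate, to 4 and 6 after subtraction and to 4 and 6 against CA1 alone. Cnih3, a cornichon that slows AMPA receptor closing, lay between 77.1 and 155 CPM in DG (median 107), between 19.5 and 48.0 CPM in CA1 (median 38.8) and between 26.7 and 41.1 CPM in CA3 (median 33.0). It did not overlap between DG and CA (log2 fold 1.64 ± 0.07, SE, edgeR adjusted p = 6.2e-67), and the auxiliary subunit Cacng7 (0.74 ± 0.06, SE) was higher while Shisa6 (-0.48 ± 0.07, SE) was lower in DG. Gria2, the subunit that makes AMPA receptors calcium-impermeable, had 240 to 490 CPM in DG (median 416), 240 to 460 CPM in CA1 (median 353) and 236 to 433 CPM in CA3 (median 335). These ranges overlapped almost fully, and the small log2 fold of Gria2, 0.25 ± 0.06 (SE, edgeR adjusted p = 1.6e-04), turned to -0.13 with the background share as a covariate and -0.02 after subtraction. Among 3 NMDA receptor subunits tested, 1 was higher and 0 lower, against 0 higher and 2 lower with the covariate. Grin2a averaged above CA3 (log2 fold 0.82) and below CA1 (-0.20), and its log2 fold against the CA mean of 0.31 turned to -0.07 with the covariate. The kainate receptor subunits Grik2 (0.80 ± 0.06, SE) and Grik3 (0.99 ± 0.08, SE) were higher and the auxiliary subunit Neto2 (-0.75 ± 0.08, SE) lower in DG, among 3 higher and 2 lower of 6 tested, whose median was 0.12 and turned to -0.15 with the covariate.

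Grm2, a presynaptic metabotropic glutamate receptor found on mossy fibers, lay between 56.4 and 124 CPM in DG (median 91.5), between 15.6 and 41.6 CPM in CA1 (median 27.8) and between 18.5 and 37.9 CPM in CA3 (median 27.0). The log2 fold of Grm2 was 1.71 ± 0.07 (SE, edgeR adjusted p = 1.9e-63), without overlap, and 4 of 6 metabotropic receptors were higher and 1 lower (1 and 1 with the covariate). Of 11 GABA-A receptor subunits, 7 were higher and 2 lower in DG, beside 25.9% and 24.0% of all genes, with a median log2 fold of 0.31. With the covariate 3 were higher and 2 lower. Gabrd, the delta subunit of extrasynaptic receptors, lay between 35.5 and 74.0 CPM in DG (median 50.3), between 13.2 and 56.5 CPM in CA1 (median 26.1) and between 10.3 and 31.9 CPM in CA3 (median 19.9). It was detected in 10 of 15 DG and 0 of 30 CA libraries (log2 fold 1.21 ± 0.09, SE, edgeR adjusted p = 9.4e-29). Gabra4, the alpha subunit that pairs with Gabrd, was also higher (0.73 ± 0.07, SE), while Gabra5, a subunit of tonic inhibition in pyramidal cells, was lower (-0.53 ± 0.06, SE).

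Ion channels that set firing also divided. Of 36 potassium channel genes tested, 18 were higher and 10 lower (11 and 7 with the covariate), with a median log2 fold of 0.16. Among all genes 25.9% were higher and 24.0% lower. Kcnk1, a leak channel of the 2-pore class, lay between 104 and 179 CPM in DG (median 153), between 51.0 and 90.2 CPM in CA1 (median 65.7) and between 30.8 and 74.96 CPM in CA3 (median 62.5), without overlap. The inward rectifier Kcnj4 (log2 fold 1.18 ± 0.07, SE) was higher in DG in 15 of 15 mice. Of 22 calcium, sodium and HCN channel genes tested 7 were higher and 12 lower (5 and 10 with the covariate), with a median of -0.22. Cacna1h, a T-type calcium channel opened near rest, was among the higher ones, at 118 to 232 CPM in DG (median 172), 40.4 to 90.6 CPM in CA1 (median 66.2) and 44.5 to 64.0 CPM in CA3 (median 49.2). Its log2 fold was 1.61 ± 0.06 (SE, edgeR adjusted p = 1.1e-72), without overlap, and Cacna1e, the R-type channel, was 0.73 ± 0.06 (SE). The calcium channel auxiliary subunit Cacna2d3 (-0.93 ± 0.07, SE) was lower in DG in 15 of 15 mice.

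Genes for wiring and adhesion were called in both directions: 15 higher and 9 lower of 34 axon guidance genes, 5 and 5 of 15 cadherins, and 13 and 11 of 37 synapse organizers. Among all genes 25.9% were higher and 24.0% lower, so these counts are not read as a trait of the lists. With the background covariate the axon guidance genes gave 7 higher and 7 lower, the cadherins 4 and 4, and the synapse organizers 8 and 8. Their median log2 folds were 0.08, -0.04 and 0.03, and the last turned to -0.04 with the background covariate and that of the cadherins to 0.05 after subtraction. Among guidance receptors, Epha6 lay between 75.4 and 134 CPM in DG (median 102), between 275 and 440 CPM in CA1 (median 325) and between 145 and 322 CPM in CA3 (median 240). The DG and CA libraries of Epha6 did not overlap (log2 fold -1.46 ± 0.07, SE), whereas Epha7, another ephrin receptor, was higher in DG (0.99 ± 0.06, SE). Plxna1, a semaphorin receptor, was lower (-1.24 ± 0.07, SE) and the ligand Sema5a higher in DG (1.39 ± 0.07, SE). The protocadherins Pcdh8 (1.10 ± 0.07, SE) and Pcdh17 (0.81 ± 0.07, SE) and the cadherin Cdh9 (1.09 ± 0.07, SE), which takes part in mossy fiber synapse formation in mice, were higher in DG in 15 of 15 mice. Nrxn3, a presynaptic neurexin, was 43.9 to 77.4 CPM in DG (median 55.9), 71.3 to 165 CPM in CA1 (median 126) and 91.8 to 163 CPM in CA3 (median 122), with a log2 fold of -1.09 ± 0.07 (SE, edgeR adjusted p = 1.6e-39).

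Of 16 peptide and granule secretion genes tested, 9 were lower and 2 higher in DG than the CA mean, with a median log2 fold of -0.29. Among all genes 24.0% were lower and 25.9% higher. Against CA1 5 were lower and 2 higher (median -0.09), and against CA3 9 were lower and 2 higher (median -0.50). Chgb, a chromogranin of dense-core vesicles, lay between 105 and 171 CPM in DG (median 148), between 111 and 205 CPM in CA1 (median 156) and between 246 and 1276 CPM in CA3 (median 886). The low level of Chgb was shared by DG and CA1 (log2 fold -0.20, edgeR adjusted p = 0.12), and DG differed from CA3 by -2.55. The secretogranin-family chaperone Scg5 was lower in DG (-0.75 ± 0.07, SE). The 2 higher members were Scg2 (0.58 ± 0.06, SE), a granin, and Bdnf (0.28 ± 0.07, SE), a neurotrophin, both named after their values were seen. Bdnf averaged 82.6 CPM in DG, 52.7 CPM in CA1 and 88.9 CPM in CA3, and DG was not separated from CA3 (edgeR adjusted p = 0.19). With the background covariate neither Scg2 (0.16, adjusted p = 0.44) nor Bdnf (0.11, adjusted p = 0.64) was called.

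Immediate early genes, which neurons switch on after firing, were lower in DG for 10 of 16 tested and higher for 3 (6 and 3 with the covariate). Their median log2 fold was -0.33. Against CA1 11 were lower and 4 higher (median -0.47), and against CA3 7 were lower and 4 higher (median -0.19). Nr4a1 and Nr4a3, orphan nuclear receptors of this class, had log2 folds of -0.84 ± 0.08 (SE) and -1.02 ± 0.08 (SE), each lower in DG in 15 of 15 mice. Arc, a regulator of AMPA receptor uptake named here after its value was seen, averaged 44.1 CPM in DG, 189 CPM in CA1 and 96.1 CPM in CA3 (log2 fold -1.60 ± 0.12, SE). Jun ran opposite to these genes. It lay between 53.9 and 144 CPM in DG (median 102), between 15.2 and 52.9 CPM in CA1 (median 25.7) and between 24.8 and 47.6 CPM in CA3 (median 34.9), without overlap (log2 fold 1.64 ± 0.07, SE, edgeR adjusted p = 8.6e-61). Btg2, an antiproliferative gene that also responds to p53, was higher in DG (0.81 ± 0.08, SE), and the third higher member was Fosl2 (0.56 ± 0.08, SE), named after its value was seen.

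Calcium binding and calmodulin signaling genes were called in both directions, 16 higher and 17 lower of 38 tested (7 and 15 with the covariate). Among all genes 25.9% were higher and 24.0% lower. The median log2 fold of the list was 0.05 and turned to -0.15 with the covariate and -0.13 after subtraction. Hpca, the calcium sensor hippocalcin, lay at 356 to 765 CPM in DG (median 653), 897 to 1972 CPM in CA1 (median 1631) and 814 to 3245 CPM in CA3 (median 2085). It was lower in DG without overlap (-1.55 ± 0.07, SE), as was the sodium-calcium exchanger Slc8a1 (-1.59 ± 0.07, SE). Ncald, a related calcium sensor, lay between 134 and 258 CPM in DG (median 226), between 18.8 and 52.9 CPM in CA1 (median 30.9) and between 93.5 and 288 CPM in CA3 (median 201). The difference of Ncald was thus one from CA1 (log2 fold 2.68), with 0.15 over CA3. Of 40 vesicle genes tested 12 were higher and 20 lower (9 and 20 with the covariate), with a median of -0.18. Against CA1 alone 12 were higher and 10 lower (median 0.01), and against CA3 11 were higher and 23 lower (median -0.42). Doc2b, a calcium sensor of vesicle release, had 84.2 to 179 CPM in DG (median 128), 70.1 to 119 CPM in CA1 (median 98.5) and 6.84 to 27.5 CPM in CA3 (median 20.5), with log2 folds of 0.41 over CA1 and 2.71 over CA3. Rph3a, a Rab effector, was the reverse, with 1.75 over CA1 and 0.54 over CA3, and the synaptotagmins Syt7 (0.97 ± 0.06, SE) and Syt17 (1.26 ± 0.08, SE) were higher in DG in 15 of 15 mice.

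General neuron genes were lower in DG for 7 of 10 tested and higher for 2. The counts were 4 and 4 against CA1, 8 and 2 against CA3, and 8 and 0 with the covariate. The median log2 fold was 0.04 against CA1 and -0.89 against CA3. These counts and medians include Rbfox3, which encodes the protein used to choose the segments. Snap25, a SNARE of transmitter release, lay between 216 and 453 CPM in DG (median 356), between 166 and 371 CPM in CA1 (median 302) and between 380 and 1588 CPM in CA3 (median 1217). DG and CA1 were not separated for Snap25 (log2 fold 0.19, edgeR adjusted p = 0.080), and DG was below CA3 by -1.69. The synaptotagmin Syt1 (-0.29 against CA1 and -1.09 against CA3) and the tubulin Tubb3 (-0.63 and -0.82 in that order) were lower in DG than both. Respiratory chain genes, all 72 of which were tested, were lower in DG for 32 and higher for 5, with a median log2 fold of -0.14 against the CA mean, 0.02 against CA1 and -0.25 against CA3. The subunits Atp5j2 (-0.40 ± 0.06, SE) and Ndufb3 (-0.35 ± 0.07, SE) were lower while Atp5l was higher (0.44 ± 0.06, SE), a call lost with the covariate (0.13, edgeR adjusted p = 0.49). With olfactory receptors at a median of -0.14 as well, the part of background in these small folds was not tested gene by gene, and the covariate fit called 34 lower and 0 higher. The respiratory chain calls came to 7 lower and 8 higher against CA1 alone and to 48 lower and 2 higher against CA3. Among the 11 genes named by the study, 4 were higher and 5 lower (0 and 7 with the covariate), including the kinase Camk2b (0.58 ± 0.06, SE) and the actin regulator Pfn2 (-0.60 ± 0.06, SE). Camk2b was not called with the covariate (0.21, edgeR adjusted p = 0.11). The calcineurin subunit Ppp3ca (0.26 ± 0.06, SE) and the kinase Ptk2b (0.19 ± 0.06, SE) were called but came to 0.02 and -0.16 with the covariate, and the NMDA receptor subunits Grin1 (-0.09 ± 0.06, SE) and Grin2b (-0.09 ± 0.06, SE) were not called.

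Because new neurons arise beside the granule cell layer, progenitor and immature neuron genes were examined too. Of 19 listed, 9 were tested, and 5 were higher and 4 lower in DG (4 and 2 with the covariate). Their median log2 fold was 0.20 against the CA mean, 0.48 against CA1 and -0.05 against CA3. The summed level of the 19 genes was 718.5 to 832 CPM in DG, 663 to 803 CPM in CA1 and 746 to 880 CPM in CA3. That sum was higher in DG than the CA mean in 9 of 15 mice. Sox11, a factor of immature neurons, lay between 38.6 and 87.8 CPM in DG (median 60.9), between 7.88 and 57.1 CPM in CA1 (median 38.8) and between 27.2 and 38.6 CPM in CA3 (median 30.4). It was detected in 14 of 15 DG and 0 of 30 CA libraries (log2 fold 0.78 ± 0.08, SE, edgeR adjusted p = 1.5e-18), with Tubb2b (0.61 ± 0.08, SE) and Neurod1 (0.51 ± 0.09, SE) also higher. Dcx, the usual mark of migrating new neurons, was above the limit in 1 of 15 DG libraries, and the proliferation gene Mki67 and the intermediate progenitor factor Eomes in 0. These genes were therefore not tested between regions, and the reason for their low signal was not tested. The cell cycle gene Ccnd2 was lower in DG than CA3 (-1.26) and higher than CA1 (0.52), and its fold against the CA mean, -0.37, came to -0.19 after subtraction and was not called (edgeR adjusted p = 0.48).

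Markers of other cells inside the NeuN outline moved unevenly, and their part in the results above was not tested. The summed level of the 14 astrocyte markers was 738 to 922 CPM in DG, 624 to 798 CPM in CA1 and 595 to 914 CPM in CA3, and was higher in DG in 15 of 15 mice. Of 11 tested, 4 were higher and 3 lower, with a median log2 fold of only 0.09. Slc4a4, described above, was among the higher ones, with medians of 116 CPM in DG, 35.3 CPM in CA1 and 33.2 CPM in CA3. The sum therefore leans on this gene and is not read as an excess of the whole list. Gfap, also higher, was at 31.9 to 70.3 CPM in DG (median 51.1), 20.2 to 51.2 CPM in CA1 (median 37.1) and 22.0 to 47.0 CPM in CA3 (median 30.7). The glutamate transporter Slc1a2 was lower in DG than CA3 (-0.88) and higher than CA1 (0.24, edgeR adjusted p = 0.030), and Sox9 was above the limit in 0 of 45 libraries. Oligodendrocyte markers summed to 710 to 907 CPM in DG, 635 to 936 CPM in CA1 and 917 to 1425 CPM in CA3. Their median background sums were 373.5 CPM in DG and 478 CPM in CA. Of 12 tested, 9 were lower and 2 higher in DG. Against CA1 3 of these were lower and 1 higher, against CA3 9 and 0, with the covariate 3 and 0, and after subtraction 4 and 0. The myelin gene Mobp (-0.68 ± 0.07, SE) was among the lower ones. Interneuron markers gave 3 higher and 5 lower of 10, and disagreed among themselves: the GABA synthesis gene Gad1 was higher (0.62 ± 0.11, SE) and Gad2 lower (-0.44 ± 0.11, SE), with Adarb2 at 1.40 ± 0.09 (SE) and Pvalb at -0.53 ± 0.09 (SE), of which Gad2 was named after its value was seen. Gad1 (0.36, edgeR adjusted p = 0.35) and Pvalb (-0.28, adjusted p = 0.25) lost their calls with the covariate, and Gad2 (-0.78, adjusted p = 0.11) after subtraction. The covariate fit called 1 interneuron marker higher and 3 lower. Microglia markers summed to 344 to 449 CPM in DG, 327 to 414 CPM in CA1 and 298 to 414 CPM in CA3, beside median background sums of 280 CPM in DG and 359 CPM in CA, with 1 of 12 tested and not called (P2ry12, -0.14 ± 0.08, SE), and endothelial and mural markers gave 1 higher and 1 lower of 6. Of 7 mossy cell markers only Ajap1 was tested (-0.37 ± 0.07, SE), and Calb2 and Drd2, which define these hilar cells, were above the limit in 0 of 45 libraries.

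The regional difference was then tested for a dependence on treatment. No gene passed in the test across the 5 groups (0%), in that of the 4 irradiated groups against CTRL (0%) or in that of FLASH against CONV (0%), where 418, 471 and 434 genes had an unadjusted p under 0.05. Limma on the per-mouse differences also called 0 genes in each, with 465, 367 and 543 at an unadjusted p under 0.05. All these counts are of 10020 genes tested. With no true difference a share of about 0.05 of the genes would fall under that threshold, so the counts are not read as a result. The gene nearest to the threshold was Vgf, a peptide precursor named after its value was seen, with an edgeR adjusted p of 0.051 across groups and 0.067 for FLASH minus CONV. Its DG minus CA difference averaged -1.33 in FLASH 3x10Gy, -1.85 in FLASH 1x10Gy, -1.06 in CONV 3x10Gy, -0.60 in CONV 1x10Gy and -1.12 in CTRL on the log2 scale (n = 3 mice each). On the 5 slides, each with at least 1 mouse of both kinds, the FLASH minus CONV difference of Vgf was -0.14, -0.53, 0.04, -1.46 and -1.87. Vgf passed with upper quartile scaling (edgeR adjusted p = 0.020 across groups and 0.027 for FLASH minus CONV) and with the background covariate (0.023 and 0.035). The p53 targets, which respond to DNA damage, the immediate early genes and the progenitor genes held 0 called genes in both contrasts, and the smallest adjusted p among the 12 p53 targets tested was 0.98 for irradiated against CTRL. Against CA, p53 targets were higher in DG for 3 and lower for 6 of 12, with a median of -0.07 that turned to 0.16 with the covariate, which called 1 higher and 1 lower.

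The difference between DG and CA was present among CTRL mice alone and among the 12 irradiated mice together. It was not tested within each irradiated group. Among CTRL mice alone 679 genes were higher and 609 lower in DG, and among the 12 irradiated mice 2502 were higher and 2274 lower, which differ in number of mice. In CTRL mice alone 27 of 123 named genes lost their call, while 96 gave the same result. Prox1 and C1ql2 are markers of granule cells, and C1ql2 was also chosen for its same sign in all mice. Their sign in each treatment is therefore not read as a test. Prox1 had per-mouse differences of 1.47, 1.82 and 2.53 in FLASH 3x10Gy, 1.78, 1.71 and 1.56 in FLASH 1x10Gy, 1.70, 0.70 and 1.70 in CONV 3x10Gy, 1.78, 1.35 and 0.94 in CONV 1x10Gy, and 1.58, 1.69 and 0.98 in CTRL. The treatments overlapped for Prox1, and its lowest value belonged to the shallow DG library of CONV 3x10Gy mouse B. For C1ql2 the differences were 2.88, 3.17 and 2.88 in FLASH 3x10Gy, 2.41, 3.38 and 1.99 in FLASH 1x10Gy, 2.55, 2.43 and 2.68 in CONV 3x10Gy, 2.15, 2.48 and 3.24 in CONV 1x10Gy, and 1.95, 1.60 and 1.95 in CTRL. All 12 irradiated mice were above the 3 CTRL mice for C1ql2, and the contrast of irradiated against CTRL gave 0.80 (edgeR adjusted p = 0.25).

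**Figure D5:**
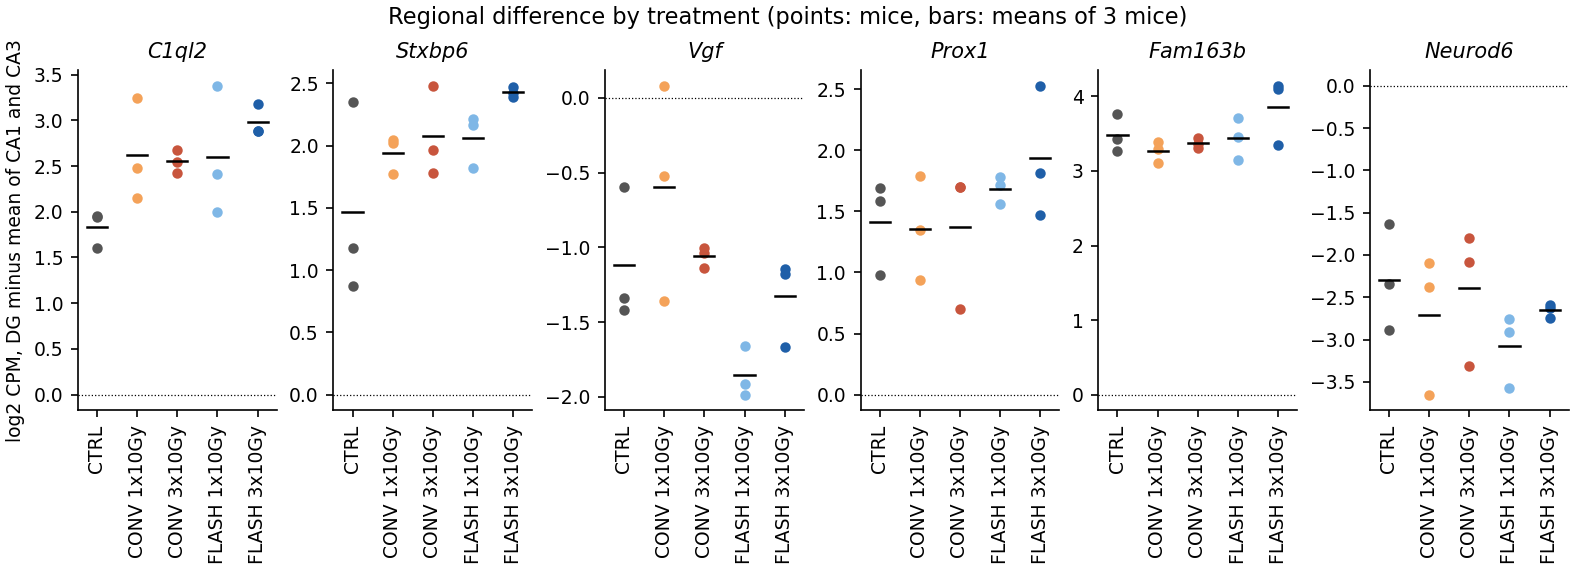
Difference of log2 CPM between DG and the mean of CA1 and CA3 for C1ql2, Stxbp6, Vgf, Prox1, Fam163b and Neurod6 in each of the 5 treatments, with 1 point per mouse and a bar at the mean of 3 mice. The 12 irradiated mice were above the CTRL mice for C1ql2, and no gene passed a test of treatment dependence across 10020 genes.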

How the data were processed

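GeoMx probe counts of 285 segments were read as deposited. Per the labels and methods, the authors sequenced photo-released probe tags and made deduplicated counts per probe, and the submitters' processing notes name the GeoMx NGS pipeline 2.0.0, R 4.4.0 and edgeR. The genome build behind the probes is not given in the sources used here. No member library failed those of the study's limits that were applied (at least 1000 raw reads, of which 80% had to pass trimming, 80% stitching and 75% alignment, and 50% sequencing saturation). The study's minimum numbers of nuclei and segment area were not checked, and the study's limits below mean the applied ones. Genes were tested where they exceeded the limit of quantification (geometric mean of the negative probes times the square of their geometric SD, at least 2 counts) in at least 5% of the 225 libraries that passed, which left 10020 genes. Negative probes were left out of library sizes and tests.

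Counts were analyzed with edgeR 4.0.16 in R 4.3.3 (TMM, robust quasi-likelihood test, two-sided, Benjamini-Hochberg over all genes tested, called at 0.05), with mouse as a block and the contrast DG minus the mean of CA1 and CA3. CPM are counts scaled to a common library size after TMM. The 3 libraries of a mouse come from the same animal by the labels, and deviations of DG and CA from their region means correlated with a median of 0.25 within mice, over 0.1 in 13 of 15, and -0.01 between other mice. The mouse block also holds slide and treatment. It does not hold plate in FLASH 1x10Gy mouse A, whose DG library was on plate E and whose CA1 and CA3 libraries were on plate F. The edgeR p-values rest on the spread of libraries left after the mouse and region terms, with CA1 and CA3 of a mouse as separate libraries. That spread was moderated across genes. Limma on per-mouse differences rests on the spread of the DG minus CA difference between mice, and called 2374 genes higher and 1874 lower in DG. The code was tested on simulated data.

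The members and gene lists were chosen with earlier results of these data known. Named genes were the 4 granule cell markers, the 12 largest log2 folds in each direction among called genes with the same sign in all 15 mice, up to 4 genes with the smallest p in each list, genes the study names and genes leading a treatment test. Others are marked as named after their values were seen. Some genes that this rule selects are not reported here. Lists were described by counts and medians, with no list test. The listed symbol Nov was followed as Ccn3. Alternatives were no mouse block, CA1 and CA3 summed, limma 3.58.1 on per-mouse differences, DESeq2 1.42.0, size factors of DESeq2 in edgeR, scaling by the upper quartile, removal of the mean of the negative probes, the background share as a covariate, no gene filter, a strict gene filter (above the limit in at least 50% of member libraries, 5125 genes), the study's limits on libraries, CTRL or irradiated mice alone, and leaving out each mouse. Contrasts of single treatments with CTRL and values within slides were added after seeing the data.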

Additional observations from a re-analysis of the deposited data

Results flagged for a closer look

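In contrasts of each irradiated group with CTRL, added after seeing the data, the DG minus CA difference of 2 genes was larger in FLASH 3x10Gy than in CTRL, and neither passed when p was adjusted over the 4 contrasts. For C1ql2 it was larger by 1.10 ± 0.22 on the log2 scale (SE, edgeR adjusted p = 0.018 within the contrast and 0.073 over the 4 contrasts), with mice at 2.88, 3.17 and 2.88 in FLASH 3x10Gy and 1.95, 1.60 and 1.95 in CTRL. For Stxbp6 it was larger by 0.95 ± 0.20 (SE, edgeR adjusted p = 0.024 and 0.098), with mice at 2.39, 2.47 and 2.42 in FLASH 3x10Gy and 2.35, 1.18 and 0.87 in CTRL. On the 2 slides that held both groups the differences were 0.94 and 1.57 for C1ql2 and 0.04 and 1.29 for Stxbp6. Limma on the per-mouse differences gave an adjusted p of 0.998 for both genes and upper quartile scaling 0.060 for both, so that neither was called, and the background covariate gave 0.012 for both. Without CTRL mouse B the difference of C1ql2 was 0.95 (edgeR adjusted p = 0.62), and without CTRL mouse C that of Stxbp6 was 0.71 (edgeR adjusted p = 1.00).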

How the results depend on the processing

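Depth and background limit these results: a gene near the negative probe level on one side has a compressed fold, and the background share differed between the regions in every mouse. Beside the reported 2595 genes higher and 2407 lower in DG, the background share as a covariate gave 1092 higher and 1120 lower with 1730 called against CA1 and 2554 against CA3, where the reported counts were 3318 and 5186, the strict gene filter 1502 and 1509 with fewer genes tested, and CTRL mice alone 679 and 609 with 3 mice. Leaving out 1 mouse at a time gave 2183 to 2604 higher and 2232 to 2806 lower. Mouse was a block in the reported fits, and with no replicate block but treatment and slide as additive terms the counts were 2568 and 2354, with 3250 called against CA1 and 5099 against CA3. The treatment tests went from 0 to 1 gene (Vgf) across groups and for FLASH against CONV with upper quartile scaling and with the covariate, and gave 0 to 3, 0 to 2 and 0 to 1 genes when a mouse was left out (Vgf without FLASH 3x10Gy mouse A or B, CONV 3x10Gy mouse A, CONV 1x10Gy mouse C, or CTRL mouse A or B, Stxbp6 without CTRL mouse A, and other genes in single cases). Single genes changed sign in these cases, none of them called then: after subtraction of the negative probe mean Fibcd1 (0.080), Gria2 (-0.017) and Ptk2b (-0.033), and with the covariate Grin2a (-0.066), Gria2 (-0.13) and Ptk2b (-0.16). The cause was not tested. The counts with summed CA libraries, limma, DESeq2, its size factors, upper quartile scaling, subtraction, no gene filter, the study's limits and irradiated mice alone stayed within 1.5 times those reported. The background share difference was -15.3 percentage points with geometric means.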
